A study of Homo sapiens with 6 samples.

Results

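The semaphorin, ephrin and guidance genes were examined in MCF10A cells, a non-tumorigenic human mammary epithelial line, with and without an shRNA against FRY. They were chosen by symbol: probe sets naming 1 gene whose symbol starts with SEMA, PLXN, EPHA, EPHB, EFNA, EFNB, SLIT1, SLIT2, SLIT3, ROBO, UNC5 or NTN, or is NRP1 or NRP2, with 6 antisense genes left out. The rule gave 72 of the 19775 genes measured, through 175 probe sets, and the probe set of highest average signal stood for each gene. Of the 72 genes, 69 belong to the guidance families. The other 3 matched by the prefix alone: UNC50, a protein of the secretory pathway, UNC5CL, a death-domain protein related to the netrin receptors, and SLIT2-IT1, a transcript within an intron of SLIT2.

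The shFRY group was 3 samples of MCF10A cells carrying a FRY-targeting shRNA, and the control group was 3 samples of MCF10A cells carrying a non-targeting shRNA. Both kinds of cells were stably transfected and puromycin-selected, and per the labels' protocols each construct was represented by 1 clone, the shFRY one picked for its low FRY, so clone and construct cannot be told apart. Samples of a group differed in passage number, and spread between them is all that the p-values rest on. The medium of both groups, made for breast epithelium, held EGF at 20 ng/ml, hydrocortisone at 5 μg/ml, insulin at 10 μg/ml, antibiotics and pituitary extract, and RNA was taken at 70% confluence. Each sample was hybridised to a 1-colour array of 54675 probe sets, and values are RMA signals on the log2 scale, on which 1 unit is a 2-fold difference.

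Semaphorins are secreted or membrane-bound ligands that signal through plexins, and the secreted ones usually need a neuropilin as co-receptor. Ephrins are membrane-anchored ligands of the Eph receptor tyrosine kinases, and signals can pass into both of the touching cells. Slits act through Robo receptors, and netrins through DCC and the UNC5 receptors. These systems were named for steering axons, but in epithelia, the mammary gland included, they act on cell adhesion, cell sorting, branching and migration.

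FRY, the targeted gene, has 4 probe sets, and all of them averaged lower in shFRY samples, but only 1 passed. The brightest averaged 4.69 ± 0.46 in shFRY samples and 5.18 ± 0.34 in control samples, with overlapping groups (SD, n = 3 each; log2 difference -0.49, limma adjusted p = 0.203 over 54613 probe sets). The one that passed averaged 3.11 ± 0.22 in shFRY samples and 3.86 ± 0.34 in control samples (-0.75, limma adjusted p = 0.0223), a call lost without shFRY sample 1 or 3 or without control sample 1 or 3. The remaining probe sets stood at -0.49 and -0.32 (limma adjusted p = 0.0576 and 0.103). Sample medians lay between 3.02 and 3.06. Pearson's r over all probe sets was 0.992 to 0.995 within a group and 0.972 to 0.978 between the groups. All 13 epithelial markers used here, keratins and cadherins among them, were above the median of all values, 3.04, in at least 1 sample. Of the 13, 7 rose and 2 fell (69.2%). Of all genes 29.8% passed, and of those with at least 1 group mean not under 3.04, 44.2%. The markers did not move together: KRT14 (2.92) and LAMB3 (1.71) were among those that rose, and KRT8 (-0.93) and KRT18 (-0.37) fell. The summed linear signal of the 13 was 30626 to 32126 in shFRY samples and 22363 to 22439 in control samples. Markers of other cell types stayed below that median in every sample for 7 of 8 immune, 5 of 9 neuronal and glial, 5 of 10 endothelial and 3 of 9 fibroblast genes. The summed signal of the endothelial list, which holds ROBO4 itself, was 347 to 398 in shFRY and 280.4 to 311 in control samples. In that list ROBO4 averaged 7.16 in shFRY and 6.17 in control samples. The sum without ROBO4 was not taken, so the higher sum cannot be read as a rise of the other endothelial markers. That of the fibroblast list was 199 to 213 in shFRY and 311 to 358 in control samples. The neuronal and glial list reached 627 to 644 in shFRY and 361 to 395 in control samples. Most of that sum came from 1 gene, MBP, which averaged 9.01 in shFRY and 8.19 in control samples. The 3' probe set of beta-actin minus its 5' one, which reflects RNA length, gave a log2 difference of 2.87 ± 0.03 in shFRY samples and 2.52 ± 0.19 in control samples (SD, n = 3 each). These values moved with the group and so with every result given here, and their part in it was not tested, except that the fit was repeated with the beta-actin difference as a covariate.

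Of the 72 genes, 15 rose and 13 fell in shFRY cells (limma, adjusted p under 0.05 over all genes), which is 38.9% of them. Over all 19775 genes, 29.8% passed, 13.7% as higher and 16% as lower. The median log2 difference was 0.08 over the 72 genes and 0.03 over all genes. In 14 of the 72, or 19.4%, the change reached 2-fold, with 6 higher and 8 lower, against 7.5% of all genes. No filter on dim signals was used. In 23 of the 72 genes both group means lay under 3.04, and 2 of these dim genes passed, against 6.39% of all dim genes. Of the other 49, 26 passed (53.1%, against 44.2% of all genes that were not dim). The shFRY and control samples did not overlap for 37 of the 72 genes, against 44.2% of all genes, and these included all 28 that passed. In cultures measured in bulk, fewer cells making a transcript and less of it per cell cannot be told apart.

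**Figure D1:**
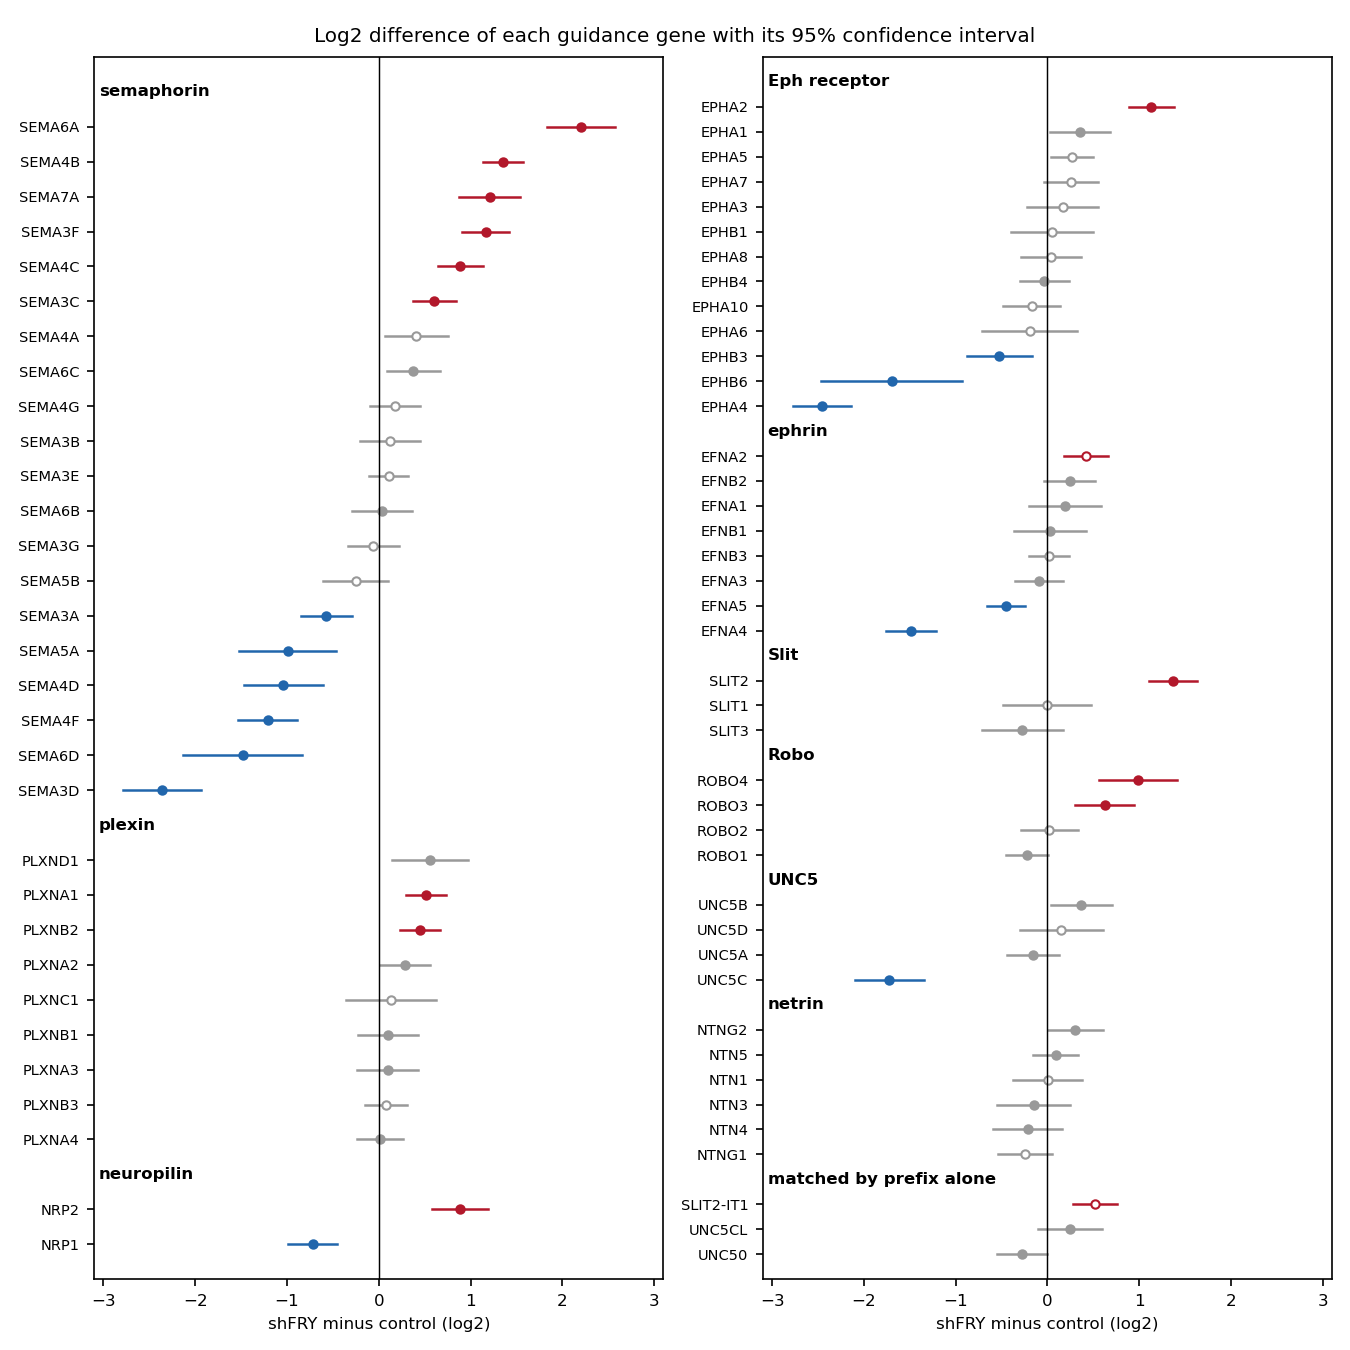
Log2 difference (shFRY minus control) of each of the 72 genes with its 95% confidence interval from limma, 3 samples per group, grouped by family. Red genes passed as higher and blue genes as lower in shFRY, grey genes did not pass, and open circles mark genes whose group means both lay under the median of all values; semaphorins lie on either side of 0, with 6 red and 6 blue.

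The promoter windows of 4 genes that changed are printed so that the sequence upstream of them can be read beside their values; they are the pair of largest rises and the pair of largest falls among genes with exactly 1 window in the RefSeq table (GRCh38.p14, 250 bases before to 50 after the gene's start). Capitals mark matches on either strand to the CRE letters TGACGTCA, the AP-1 letters TGANTCA and the TEAD letters CATTCC, motifs that were chosen after the data were seen.
SLIT2 (chr4:20251655-20251954, plus strand): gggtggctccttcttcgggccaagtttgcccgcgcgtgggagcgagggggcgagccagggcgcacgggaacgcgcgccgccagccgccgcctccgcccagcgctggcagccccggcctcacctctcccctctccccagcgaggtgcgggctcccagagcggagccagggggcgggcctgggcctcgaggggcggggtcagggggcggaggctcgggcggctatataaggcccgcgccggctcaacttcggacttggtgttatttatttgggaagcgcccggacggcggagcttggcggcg
EPHA2 (chr1:16156020-16156319, minus strand): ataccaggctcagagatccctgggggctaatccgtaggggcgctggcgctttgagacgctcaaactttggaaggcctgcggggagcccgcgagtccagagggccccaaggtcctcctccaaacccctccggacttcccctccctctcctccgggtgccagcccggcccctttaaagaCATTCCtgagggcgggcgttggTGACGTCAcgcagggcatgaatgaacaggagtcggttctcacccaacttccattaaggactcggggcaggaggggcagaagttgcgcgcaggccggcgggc
SEMA3D (chr7:85187007-85187306, minus strand): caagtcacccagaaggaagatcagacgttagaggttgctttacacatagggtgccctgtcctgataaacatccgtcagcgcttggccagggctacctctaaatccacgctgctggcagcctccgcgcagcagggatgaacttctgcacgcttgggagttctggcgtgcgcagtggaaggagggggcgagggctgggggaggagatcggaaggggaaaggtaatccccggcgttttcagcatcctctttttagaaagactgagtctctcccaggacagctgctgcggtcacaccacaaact
UNC5C (chr4:95548924-95549223, minus strand): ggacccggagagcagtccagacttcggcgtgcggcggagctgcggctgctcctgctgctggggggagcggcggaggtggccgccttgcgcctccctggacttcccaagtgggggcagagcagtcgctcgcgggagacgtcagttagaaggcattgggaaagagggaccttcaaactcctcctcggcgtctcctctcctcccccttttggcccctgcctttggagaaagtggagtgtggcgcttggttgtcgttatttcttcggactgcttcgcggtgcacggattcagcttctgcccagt

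SLIT2 and EPHA2 rose, and SEMA3D and UNC5C fell. The EPHA2 window holds 1 CRE match and 1 TEAD match, which do not overlap, and the other 3 windows hold none of the 3 motifs. The CRE letters were found in 1.85% of all 35116 promoter windows, the AP-1 letters in 7.71% and the TEAD letters in 14%. Of the 93 windows that matched 60 of the 72 genes, 3 held the CRE letters, 1 the AP-1 letters and 10 the TEAD letters. The GC box GGGCGG, found in 45% of all windows, was in 68 of the 93. It was in 18 of the 21 windows of 13 genes that rose and in 10 of the 14 windows of 11 genes that fell. Windows were counted, and several can belong to 1 gene. It occurs 5 times in the SLIT2 window, 1 time in that of EPHA2, and not in those of SEMA3D and UNC5C. A match of letters is not a binding site, and the arrays measured no binding.

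Among the ligands, 12 of the 20 semaphorin genes passed (60%, against 29.8% of all genes), 6 higher and 6 lower in shFRY cells. The classes did not move as blocks. Class 3 had 2 rises and 2 falls among 7 genes. Class 4 had 2 and 2 among 6, and class 6 had 1 and 1 among 4. The semaphorin with the largest rise was SEMA6A, a transmembrane ligand of A-type plexins. Its signal was 7.36, 7.28 and 7.74 in the shFRY samples, against 5.30, 5.02 and 5.46 in the control samples. No shFRY sample came near the control range, and the difference was 2.20 on the log2 scale, or 4.59-fold (SE 0.16, limma adjusted p = 4.92e-05). Its relative SEMA6D, known as a ligand of plexin A1, went the other way, with 3.17, 3.78 and 4.195 in shFRY and 5.68, 4.99 and 4.93 in control samples. The groups did not overlap, but the samples of each group were spread widely (log2 difference -1.48, SE 0.28, limma adjusted p = 0.00517).

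The secreted class 3 semaphorins bind neuropilins. SEMA3F, which prefers NRP2, rose 2.24-fold: its signal was 7.05, 6.86 and 6.94 in shFRY samples, against 5.67, 5.76 and 5.93 in control samples (log2 difference 1.16, SE 0.11, limma adjusted p = 0.000167). SEMA3C, which binds both neuropilins, rose by less, with 9.24, 9.39 and 9.20 in shFRY and 8.69, 8.59 and 8.75 in control samples (0.60, limma adjusted p = 0.00290). SEMA3A, the repellent ligand of NRP1, fell by 0.57 on the log2 scale (limma adjusted p = 0.00879). It read 6.98, 6.97 and 7.22 in shFRY samples, against 7.49, 7.79 and 7.60 in control samples. SEMA3D had the largest fall of all semaphorins, with 2.82, 3.29 and 3.31 in shFRY samples, against 5.79, 5.20 and 5.52 in control samples (log2 difference -2.36, SE 0.19, limma adjusted p = 6.93e-05). The shFRY values of SEMA3D lie near the median of all values, where RMA compresses differences, so the size of its 5.14-fold fall is uncertain. The other probe set of SEMA3D, of dim signal, stood at 0.23 and was not called. SEMA3B, SEMA3E and SEMA3G were dim and did not pass.

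Of the membrane-bound class 4 semaphorins, SEMA4B was the most even between samples. It read 7.63, 7.64 and 7.66 in shFRY samples, against 6.37, 6.27 and 6.22 in control samples (log2 difference 1.35, SE 0.09, limma adjusted p = 3.60e-05). SEMA4C, a ligand of plexin B2, rose by a log2 difference of 0.89 (7.06, 7.04 and 6.80 in shFRY, against 6.02, 6.07 and 6.14 in control samples; limma adjusted p = 0.000559). Whereas these rose, the plexin B1 ligand SEMA4D fell, with 4.42, 4.06 and 4.62 in shFRY samples, against 5.09, 5.68 and 5.44 in control samples (-1.04, SE 0.19, limma adjusted p = 0.00398). SEMA4F fell by 1.21 on the log2 scale, from a probe set that can also match related sequences (3.87, 4.39 and 4.15 in shFRY, against 5.29, 5.35 and 5.40 in control samples; limma adjusted p = 0.000402). Outside class 4, the lipid-anchored SEMA7A, which signals through integrins and plexin C1, rose. It read 5.95, 5.96 and 5.67 in shFRY samples, against 4.88, 4.66 and 4.42 in control samples (1.21, SE 0.14, limma adjusted p = 0.000503). SEMA5A, a transmembrane semaphorin with thrombospondin repeats, fell by 0.99 (SE 0.23, limma adjusted p = 0.0131), and its shFRY samples, at 4.68, 3.72 and 4.16, scattered more than its control samples, at 5.02, 5.08 and 5.44. The 8 semaphorins that did not pass had differences between -0.25 and 0.41.

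**Figure D2:**
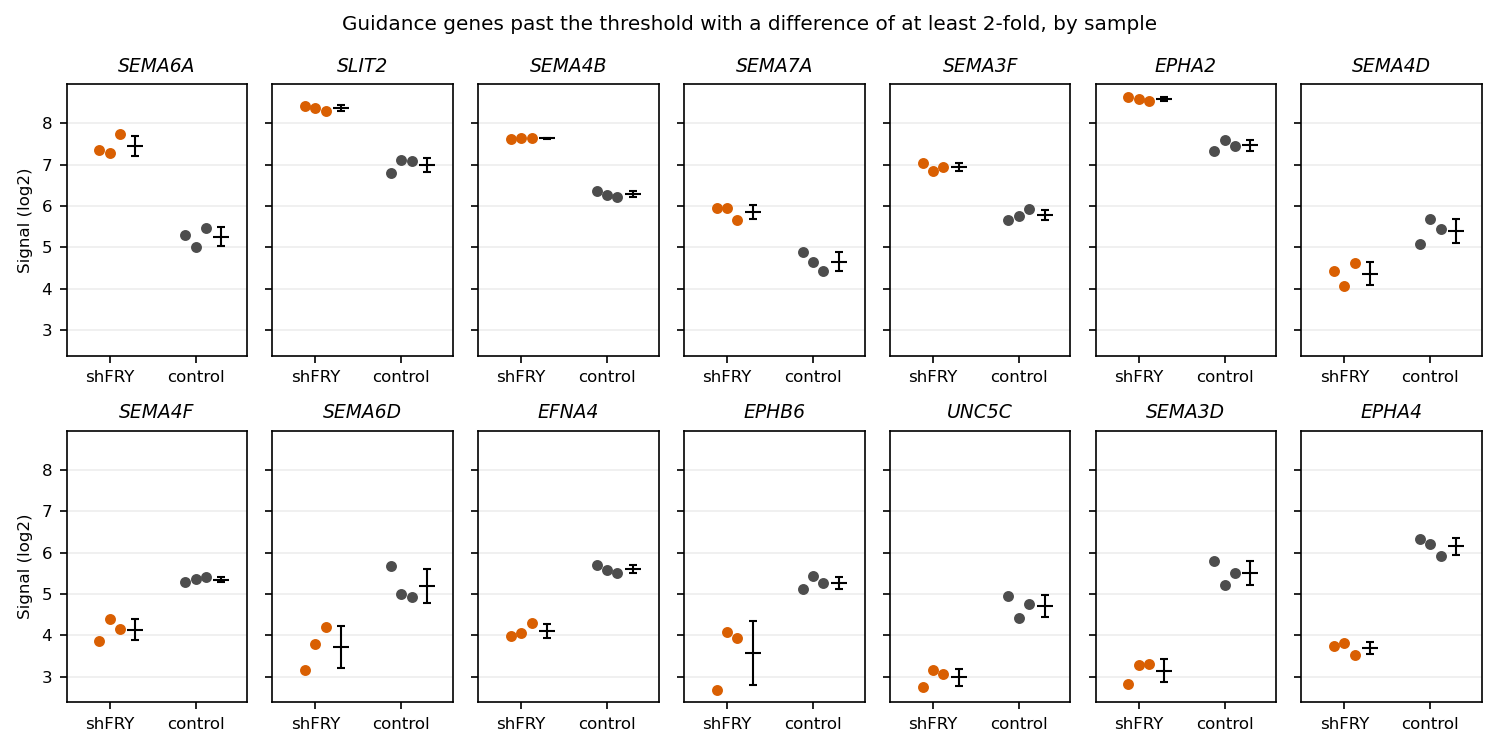
Log2 signal in each sample for the 14 guidance genes that passed with a difference of at least 2-fold, shFRY on the left and control on the right of each panel, with mean and SD beside the 3 points. The groups do not overlap in any of the 14 panels, and EPHB6 has 1 shFRY sample, at 2.67, well below the other 2; heights are not comparable between panels, since each gene has its own probe set.

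The neuropilins, co-receptors of class 3 semaphorins and of VEGF, moved in opposite directions. NRP2 read 7.51, 7.18 and 7.12 in shFRY samples, against 6.41, 6.49 and 6.24 in control samples, a rise (log2 difference 0.89, SE 0.13, limma adjusted p = 0.00156). NRP1 read 7.78, 7.69 and 7.80 in shFRY samples, against 8.43, 8.67 and 8.32 in control samples, a log2 difference of -0.72 (SE 0.12, limma adjusted p = 0.00223). Of the 11 probe sets of NRP2, 7 were called higher and 0 lower, and of the 4 of NRP1, 3 were called lower and 0 higher, in the fit over all probe sets, where 23.1% were called.

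Of the 9 plexins, the signalling receptors for semaphorins, 2 rose and none fell (22.2%, against 29.8% of all genes). PLXNA1, a partner of the neuropilins, rose by 0.51 (6.29, 6.39 and 6.40 in shFRY, against 5.79, 5.85 and 5.89 in control samples; limma adjusted p = 0.00419). PLXNB2, a receptor of class 4 semaphorins, rose by 0.45 (5.38, 5.57 and 5.46 in shFRY, against 5.03, 5.03 and 5.01 in control samples; limma adjusted p = 0.00883). PLXND1, the receptor of SEMA3E, just missed the threshold, at 4.67, 4.13 and 3.94 in shFRY samples, against 3.57, 3.72 and 3.77 in control samples (0.56, limma adjusted p = 0.0501). The 7 plexins that did not pass had differences between 0.01 and 0.56, and of these PLXNA2 and PLXNA4 each had another probe set called higher, at 1.01 and 0.50. PLXNB1 and PLXNC1, the receptors named above for SEMA4D and SEMA7A, differed by 0.10 and 0.13 (limma adjusted p = 0.658 and 0.691).

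Among the 13 Eph receptors, 1 rose and 3 fell (30.8%, about the 29.8% of all genes). EPHA4, a receptor that binds ephrins of both subclasses, had the largest fall of all 72 genes. Its signal was 3.74, 3.82 and 3.52 in shFRY samples, against 6.32, 6.21 and 5.92 in control samples, a 5.49-fold reduction (log2 difference -2.46, SE 0.14, limma adjusted p = 1.28e-05). EPHA2, the main Eph receptor of many epithelia, went up. It read 8.64, 8.60 and 8.55 in shFRY samples, against 7.33, 7.61 and 7.47 in control samples, a 2.19-fold rise (1.13, SE 0.11, limma adjusted p = 0.000160). EPHB6, which lacks kinase activity, fell as well (log2 difference -1.70, SE 0.33, limma adjusted p = 0.00595). It read 2.67, 4.09 and 3.94 in shFRY samples, against 5.11, 5.42 and 5.25 in control samples. The size of that fall depends on the first shFRY sample, without which it was -1.25. EPHB3 fell by 0.53 (3.50, 3.37 and 3.88 in shFRY, against 4.29, 4.08 and 3.96 in control samples; limma adjusted p = 0.0330), a call lost without shFRY sample 1 or 2 or without control sample 1 or 2. EPHB4, the receptor of ephrin-B2, read 7.85, 7.81 and 8.02 in shFRY samples, against 7.99, 7.75 and 8.04 in control samples (-0.04, 95% confidence interval -0.30 to 0.23). The group ranges of EPHB4 overlapped. Of the 13 receptors, 7 were dim in both groups, EPHA3, EPHA5, EPHA6, EPHA7, EPHA8, EPHA10 and EPHB1, and none of these 7 passed in limma.

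Of the 8 ephrin genes, 2 fell and 1 rose (37.5%, against 29.8% of all genes). All that passed were of the lipid-anchored A subclass, while none of the 3 transmembrane ephrin-B genes passed. EFNA4 read 3.98, 4.04 and 4.30 in shFRY samples, against 5.69, 5.59 and 5.51 in control samples (log2 difference -1.49, SE 0.12, limma adjusted p = 7.29e-05). EFNA5, a high-affinity ligand of EPHA4, was very even between samples. It read 9.99, 9.94 and 9.97 in shFRY samples, against 10.42, 10.39 and 10.46 in control samples (-0.46, SE 0.09, limma adjusted p = 0.00606), and all 4 of its probe sets were called lower. EFNA1, the usual partner of EPHA2, differed by 0.19 and did not pass (limma adjusted p = 0.443). EFNB2, the partner of EPHB4, differed by 0.24 (95% confidence interval -0.04 to 0.52, limma adjusted p = 0.186). EFNA2 was dim, with 2.45, 2.59 and 2.72 in shFRY samples, against 2.16, 2.21 and 2.13 in control samples. It passed as higher (0.42, limma adjusted p = 0.0184), but its other 2 probe sets stood at -0.05 and 0.03, and the call was lost without shFRY sample 2 or without control sample 1 or 3.

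In the Slit and Robo families, 3 genes rose and none fell. These were 1 of 3 Slits (33.3%) and 2 of 4 Robos (50%), against 29.8% of all genes. SLIT2, a secreted ligand that restrains branching in the mammary gland, read 8.43, 8.38 and 8.31 in shFRY samples, against 6.81, 7.12 and 7.09 in control samples. The rise was 2.59-fold (log2 difference 1.37, SE 0.11, limma adjusted p = 9.27e-05), and all 3 of its probe sets were called higher, at 1.37, 1.45 and 1.47. Its intronic transcript SLIT2-IT1 passed as well (0.51, limma adjusted p = 0.00716), at signals of 1.41 to 1.53 in shFRY samples and 0.88 to 1.11 in control samples, far under the median of all values. SLIT1 and SLIT3 did not pass, at -0.01 and -0.27. ROBO4, the Robo receptor known from endothelium, read 7.21, 7.51 and 6.76 in shFRY samples, against 6.02, 6.24 and 6.25 in control samples (0.99, SE 0.18, limma adjusted p = 0.00466). Its other probe set, at a signal of 3.79 in shFRY and 3.75 in control samples, differed by 0.04. Among the other endothelial markers TEK rose too, with 3.04, 3.41 and 4.28 in shFRY samples, against 1.42, 1.93 and 1.84 in control samples (1.85, limma adjusted p = 0.00221). Of the 10 endothelial markers only ROBO4 and TEK passed. PECAM1 averaged 7.40 in shFRY and 7.54 in control samples, a difference of -0.14. ESAM stood at -0.33, ERG at -0.14 and CLDN5 at -0.06, and CDH5, VWF, TIE1 and EMCN at 0.05 to 0.21. CDH5, VWF, TIE1, EMCN and ERG were below the median of all values in every sample. The part of other cells in the ROBO4 signal was not tested. ROBO3, a divergent Robo of crossing axons, read 7.80, 7.61 and 7.35 in shFRY samples, against 7.13, 6.87 and 6.89 in control samples (0.62, SE 0.14, limma adjusted p = 0.0113). ROBO1, the common Slit receptor of epithelia, read 8.17, 8.36 and 8.26 in shFRY samples, against 8.43, 8.50 and 8.55 in control samples. Its groups did not overlap, but the difference of -0.23 did not pass (limma adjusted p = 0.131).

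UNC5C, a netrin receptor, fell 3.30-fold. It read 2.74, 3.15 and 3.05 in shFRY samples, against 4.94, 4.41 and 4.75 in control samples (log2 difference -1.72, SE 0.17, limma adjusted p = 0.000176), and its shFRY values lay around the median of all values. UNC5B, a receptor best known from vessels, read 6.79, 6.62 and 6.41 in shFRY samples, against 6.35, 6.005 and 6.36 in control samples. The groups did not overlap, but the difference of 0.37 did not pass (limma adjusted p = 0.0903), and its other 2 probe sets stood at 0.48 and 0.44. None of the 6 netrin genes passed in limma, where 29.8% of all genes did. NTN4, a netrin of basement membranes, overlapped between the groups, with 7.996, 7.72 and 7.44 in shFRY samples, against 7.72, 8.02 and 8.06 in control samples (-0.22, 95% confidence interval -0.59 to 0.15). The netrin receptor DCC was below the median of all values, with means of 1.64 in shFRY and 1.72 in control samples.

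Of the 28 genes that passed, 22 had further probe sets. At least 1 of these was called in the same direction for 12 of the 22, and 0 of the 22 had one called in the opposite direction. SEMA6A, for instance, had 4 of 5 probe sets called higher. The fall of SEMA3D rests on 1 of 2 probe sets, the other reading 1.52 in shFRY and 1.29 in control samples, and that of UNC5C on 1 of 5. Calls also rest on 1 probe set for SEMA6D (1 of 5), for EFNA2 and PLXNA1 (1 of 3 each), and for EPHB3, PLXNB2, ROBO4, SEMA4D and SEMA7A (1 of 2 each). When all probe sets of a gene were averaged, the log2 difference shrank to -1.06 for SEMA3D, -1.02 for EPHA4, 1.01 for SEMA6A, -0.44 for UNC5C, -0.38 for SEMA6D, 0.51 for NRP2, 0.51 for ROBO4, 0.73 for SEMA7A, 0.77 for SEMA3F and -0.35 for SEMA3A, all still past the threshold. EPHB3, PLXNA1 and EFNA2 no longer passed with averaged probe sets, at -0.12, 0.17 and 0.13. EFNA4 and SEMA4B have 1 probe set each, of the kind whose probes match several transcripts (_s_at).

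**Figure D3:**
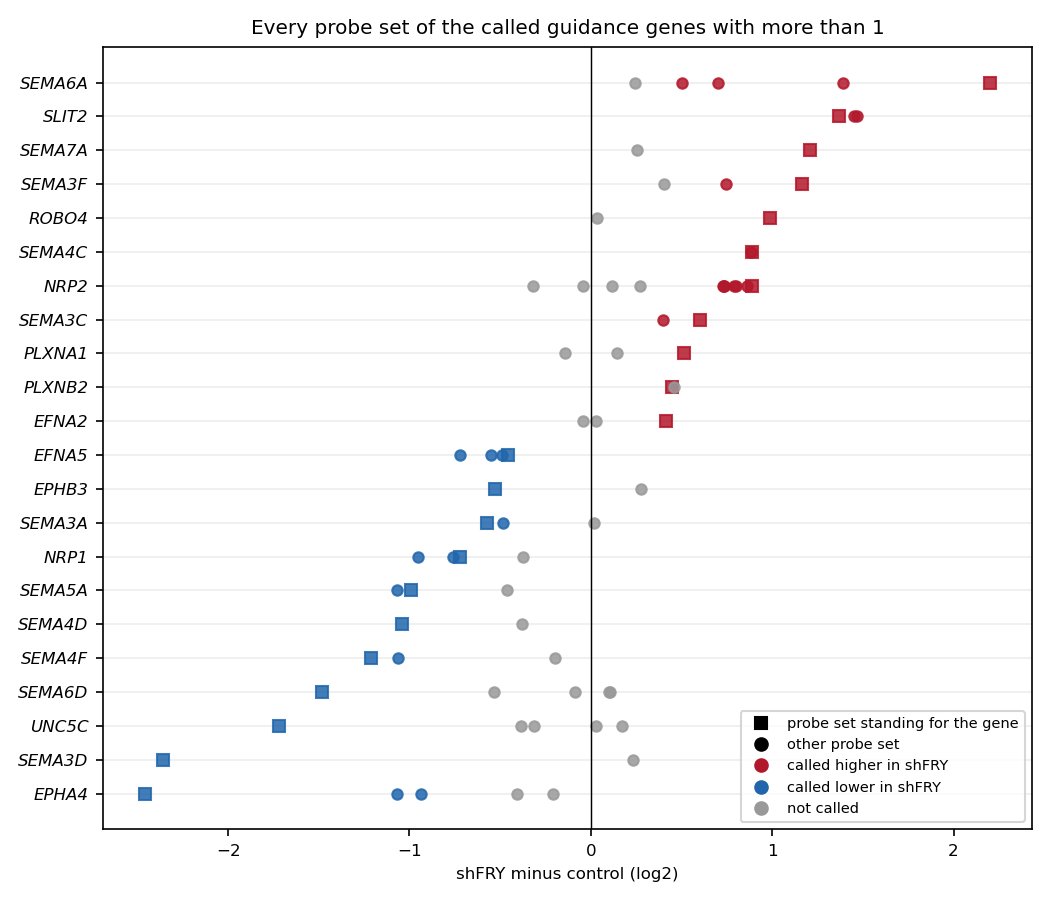
Log2 difference (shFRY minus control) of every probe set of the 22 genes that passed and have more than 1, with squares for the probe set standing for the gene. Red and blue probe sets were called higher and lower in the fit over 54613 probe sets and grey ones were not called; in each row the coloured points lie on 1 side of 0.

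With the beta-actin 3' minus 5' difference of each sample as a covariate, all 28 genes kept their sign and 11 of them passed: SEMA6A, SEMA4B, SEMA7A, SEMA3F, SLIT2 and EPHA2 as higher, and EPHA4, SEMA3D, UNC5C, EFNA4 and SEMA4F as lower. Of the 72 genes, 15.3% passed in that fit, against 5.19% of all genes. The 28 genes had been chosen by passing in these same samples, which favours a kept sign. The median absolute log2 difference of the 28 genes was 0.96 with the covariate and 1.02 without it, and the median SE 0.24 with it and 0.13 without it. The calls of NRP1 (-0.61, limma adjusted p = 0.204), NRP2 (1.02, limma adjusted p = 0.0829), EPHB6 (-1.78), SEMA4C (0.74), SEMA4D (-1.29), SEMA5A (-1.35), SEMA3A (-0.63), SEMA3C (0.53), EFNA5 (-0.49), ROBO3 (0.80), ROBO4 (0.67), PLXNA1 (0.43), PLXNB2 (0.46), EFNA2 (0.47) and SLIT2-IT1 (0.71) were lost there. SEMA6D, at -0.70, and EPHB3, at -0.15, lost both the call and a large part of the difference.

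Several of the genes lie side by side in the RefSeq gene order. ROBO3 and ROBO4 are neighbours on chromosome 11, and both rose. ROBO2 and ROBO1 are neighbours on chromosome 3, and neither passed (0.02 and -0.23). SEMA3E, SEMA3A and SEMA3D follow each other on chromosome 7, where SEMA3A and SEMA3D fell and the dim SEMA3E stood at 0.11. The ephrin genes EFNA4, EFNA3 and EFNA1 are consecutive on chromosome 1, and of these EFNA4 fell, while EFNA3 and EFNA1 stood at -0.09 and 0.19 (limma adjusted p = 0.602 and 0.443).

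Partners and effectors of the guidance families passed more often as higher than as lower in shFRY cells. Over 4 lists together, 38 of 107 genes rose and 10 fell, or 44.9%. This compares with 29.8% of all genes and 44.2% of all genes that were not dim. Below 3.04 in every sample were 6 of 37, 0 of 7, 3 of 31 and 9 of 32 genes, in the order below. The median log2 difference was 0.23, against 0.03 over all genes. Among 37 partners and effectors of semaphorins and plexins, 14 rose and 6 fell (54.1%, median 0.25). MICAL2, an enzyme that oxidises actin, read 9.20, 8.94 and 8.70 in shFRY samples, against 6.27, 5.87 and 5.55 in control samples (log2 difference 3.05, limma adjusted p = 2.80e-05). The kinase gene FYN (1.92) and RND3 (1.76) also rose, and DPYSL3, of the collapsin response mediators, fell by 1.28. In the 7 VEGF ligands and receptors, which share the neuropilins, the receptor gene KDR fell, with 2.98, 3.77 and 3.30 in shFRY samples, against 5.96, 5.62 and 5.80 in control samples (-2.45, limma adjusted p = 7.68e-05). The ligand genes VEGFA (0.87) and VEGFC (0.46) and the receptor gene FLT1 (0.36) rose, while the median of the 7 was -0.25. This count of 4 past the threshold was 2 without shFRY sample 1 or without control sample 2. Without _s_at and _x_at probe sets it was 2 of the 4 genes still tested.

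Of 31 effectors of Eph and ephrin signalling, 11 rose and 0 fell (35.5%, against 29.8% of all genes and 44.2% of all genes that were not dim, median 0.26). They included ANKS1B (1.96), the kinase gene ABL2 (1.87), SIPA1L1 (1.18), a Rap GTPase-activating protein, and the metalloprotease gene ADAM12 (0.97). Without _s_at and _x_at probe sets this count was 7 of the 25 genes still tested (28%, against 25.7% of all genes in that fit). The absence of falls was not stable. With the eBayes trend and robust options 13 rose and 3 fell, and without shFRY sample 3, 10 rose and 2 fell. Of 32 partners and effectors of netrins, Slits and RGM proteins, 10 rose and 3 fell (40.6%, median 0.13). The chemokine receptor gene CXCR4 fell by 2.61 and SRGAP2, a Rac and Cdc42 regulator that binds Robo, by 1.44. CXCR4 read 3.12, 2.02 and 3.61 in shFRY samples, against 5.42, 5.51 and 5.65 in control samples. SRGAP2 read 2.16, 2.26 and 1.74 in shFRY samples, against 3.63, 3.37 and 3.47 in control samples. The shFRY values of both lay near or under the median of all values, so the sizes of these falls are uncertain. The genes FLRT1 (1.29) and FLRT2 (1.22), ligands of UNC5 receptors, rose. FLRT3 (0.82), named after its value was seen, rose as well, so all 3 FLRT genes were higher. With the beta-actin covariate 10 of the 107 genes passed, 9 higher and 1 lower.

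**Figure D4:**
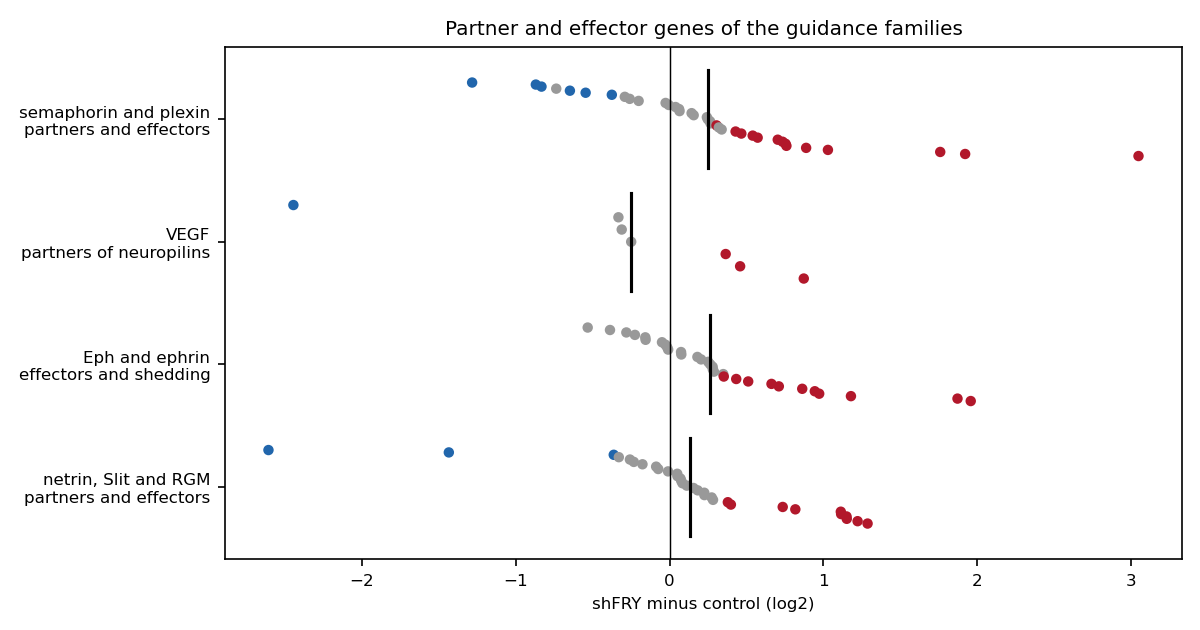
Log2 difference (shFRY minus control) of each gene in the 4 lists of partners and effectors, with a black bar at the list's median. Red genes passed as higher and blue genes as lower in shFRY and grey genes did not pass. The 31 Eph and ephrin effectors hold 11 red and 0 blue genes (35.5%, against 29.8% of all genes and 44.2% of all genes that were not dim). Some alternative fits gave falls in this list too.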

How the data were processed

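RNA of 6 cultures, 3 shFRY and 3 control by the sample titles, was amplified from 40 ng, biotin-labelled and hybridised to 1 array each, per the labels' protocols. The authors deposited log2 values made with RMA, per the submitters' processing notes, with its version and settings not given in the sources used here. This method usually makes the arrays' distributions alike and compresses differences of dim probe sets, and a shift shared by all genes cannot be seen. The number of arrays limits the precision.

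Probe sets were named by a platform annotation, which can be old, with symbols updated through Entrez IDs to RefSeq (GRCh38.p14). Of 54675 probe sets, 62 were controls and 41091 named 1 gene; limma 3.58.1 under R 4.3.3 tested shFRY minus control in 19775 genes (lmFit and eBayes without trend or filter, 4 residual degrees of freedom), with Benjamini-Hochberg adjustment over all genes, at 0.05. Single probe sets were tested in a like fit over the 54613 non-control ones. The fit was tested on simulated data.

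The genes and lists were chosen with earlier results of these data known. All genes that passed are named; sample values are given for those changed at least 2-fold and for 1 gene of highest mean signal per family, and others as they bear on these. Per list, up to 4 genes with the largest differences are named, and 1 list is not reported here.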

Additional observations from a re-analysis of the deposited data

How the results depend on the processing

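The count of 28 guidance genes past the threshold stayed between 23 and 31 under the alternatives tried, except for the beta-actin covariate, where it was 11. Those alternatives were median centring, eBayes with trend and robust, a second quantile normalization, only brighter probe sets, averaged probe sets, probe sets other than _s_at and _x_at, array weights and the replicate block. Without _s_at and _x_at probe sets only 63 of the 72 genes were tested, and 23 passed (36.5%, against 25.7% of all genes in that fit). Leaving out each sample in turn gave 26 to 31, and 26 of the 28 genes passed in each of these 6 fits, EFNA2 and EPHB3 being the exceptions. The covariate also gave 1026 of all genes in place of 5889 and 10 of the partner genes in place of 48. It takes 1 degree of freedom and lies along the group difference. What share of the lost calls comes from either of these, or from RNA length, was not tested. Leaving out 1 sample gave 4503 to 5766 genes and 38 to 49 partner genes. With the replicate block 28 guidance genes passed, 16 higher and 12 lower, with EPHB3 lost and SEMA6C gained. Deviations of equally numbered samples from their group means correlated at -0.0002, -0.002 and 0.007. No pairing by number was seen in the values, which cannot tell whether equally numbered samples were handled together. EFNA2 turned to -0.045 (limma adjusted p = 0.832) without _s_at and _x_at probe sets, where another of its probe sets stood for it. Of genes near the threshold, SEMA6C passed under 7 of the 14 alternatives that measured it and PLXND1 under 6 of 15. The probe set of FRY that passed lost its call with the replicate block and with the covariate too. Changes of sign among genes that passed in neither fit were not counted as reversals. Of the dim guidance genes 2 of 23 passed, against 6.39% of all dim genes, whose group means both lay under the median of all values.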

Other observations

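Of the probe sets outside the rule, the one that names both SEMA3B and the microRNA gene MIR6872 read 4.65, 4.43 and 4.09 in shFRY samples, against 4.13, 3.87 and 4.28 in control samples (0.29, limma adjusted p = 0.267). The 7 probe sets of the 6 antisense genes that were left out had differences between -0.04 and 0.30, and none passed in limma.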
